A study of Homo sapiens with 12 samples.

Results

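Annexins are proteins that bind membrane phospholipids when calcium rises, through a conserved core of repeated domains. They differ in their N-terminal tails, which carry partner sites such as those for S100 proteins. In muscle and other cells they are known for patching the torn plasma membrane, for linking membranes to cortical actin and for vesicle traffic. The data here were the signals of 8 annexin genes, ANXA1 to ANXA7 and ANXA11, in RD cells, an established line from an embryonal rhabdomyosarcoma, a childhood tumour with skeletal muscle features. They were 8 of 11963 genes named on this Affymetrix human genome array and had 13 of its 19065 probe sets with 1 gene symbol, among 22215 probe sets in all. The genes were chosen by these same signals, by their construct differences and 4-OHT changes on the 12 arrays. Their values are therefore a description, with no test, and nothing is read from how many of them passed a threshold.

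The cells carried either PAX3-FKHR-ER or the empty vector pK1. PAX3-FKHR is the fusion transcription factor of alveolar rhabdomyosarcoma, here fused to an altered hormone-binding part of the estrogen receptor so that 4-hydroxytamoxifen (4-OHT) acts as its ligand. Each construct was measured without 4-OHT and after 30 nM 4-OHT for 24 h, with 3 arrays in each of 4 groups. The design speaks of separate populations of transduced cells for each construct, so a construct difference is one between populations as well. The labels do not say whether a replicate number stands for a population, and p-values then measure the spread between these samples. Both constructs were in the same line, and no group of untransduced cells was part of the design.

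Values are array signals on a linear scale, and differences are on the log2(signal + 16) scale, which shrinks differences of dim probe sets. A probe set's signal shows its own change between arrays and cannot be set against the signal of another probe set. Median signals were 50.4 to 62.8 per array, and the number of arrays limits the precision. The 4 replicate 1 arrays stood apart from the other 8. Their 27 poly-A labelling control probe sets had medians of 2.33 to 6.17, against 92.8 to 251 on the other arrays. Correlations over tested probe sets were 0.957 to 0.982 among the replicate 1 arrays and 0.815 to 0.869 with the rest. Among the other 8 arrays they were 0.867 to 0.982, so these were not uniform either. Replicate 1 is therefore given beside replicates 2 and 3 throughout. Several muscle markers were present on these arrays: MYOD1 had signals of 197 to 2098, DES 85.6 to 862 and CHRNA1 245 to 2560. Others were dim, with MYF5 at 0.81 to 15.6 and MYF6 at 7.52 to 61.4, while MYOG ranged from 8.82 to 298. EPCAM, CDH1, KRT19 and KRT14 of epithelium were at or below 26.9, and the leukocyte gene PTPRC was at or below 23.5. Some markers of other cell types were brighter: CD3E of leukocytes reached 96.8, PECAM1 of endothelium 84.3, and the fibroblast genes COL1A1, THY1 and DCN ranged over 226 to 635, 48.1 to 511 and 81.8 to 164.

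ANXA4, ANXA1 and ANXA11 were the annexins that differed by over 0.5 on the log2 scale in both replicates 2 and 3 of some comparison, and the bases before their starts are shown for that reason. Each run is the 250 bases before a RefSeq start in GRCh38.p14, 5′ to 3′ on the gene's strand. Capitals mark GTCAC, the core that paired domains such as that of PAX3 recognise, CANNTG, the E-box of MYOD1 and its relatives, and TATAAA, the TATA box, each searched on both strands, with no base shared by marked motifs.

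ANXA4, first start, chr2:69643558-69643807, plus strand: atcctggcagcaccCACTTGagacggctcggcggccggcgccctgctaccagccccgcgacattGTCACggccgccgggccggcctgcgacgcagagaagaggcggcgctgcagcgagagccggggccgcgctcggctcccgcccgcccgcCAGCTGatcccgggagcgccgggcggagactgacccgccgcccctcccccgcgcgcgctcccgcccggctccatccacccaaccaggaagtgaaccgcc
ANXA4, inner start, chr2:69741884-69742133, plus strand: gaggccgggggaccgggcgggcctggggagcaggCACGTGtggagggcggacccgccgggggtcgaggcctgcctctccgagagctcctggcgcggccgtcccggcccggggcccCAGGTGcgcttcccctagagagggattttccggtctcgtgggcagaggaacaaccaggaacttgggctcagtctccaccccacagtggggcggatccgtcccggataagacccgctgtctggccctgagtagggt
ANXA1, chr9:73151615-73151864, plus strand: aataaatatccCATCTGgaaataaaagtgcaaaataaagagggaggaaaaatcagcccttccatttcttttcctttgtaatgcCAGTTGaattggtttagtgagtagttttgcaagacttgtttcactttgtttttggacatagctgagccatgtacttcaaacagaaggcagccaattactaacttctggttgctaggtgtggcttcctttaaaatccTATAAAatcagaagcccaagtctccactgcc
ANXA11, outermost of 3 starts, chr10:80205809-80206058, minus strand: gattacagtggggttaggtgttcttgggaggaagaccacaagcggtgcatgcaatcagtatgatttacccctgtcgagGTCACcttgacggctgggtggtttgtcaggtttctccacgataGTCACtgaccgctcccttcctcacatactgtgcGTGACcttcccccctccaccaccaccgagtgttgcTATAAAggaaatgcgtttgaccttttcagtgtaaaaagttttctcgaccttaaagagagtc

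The ANXA1 window was 38.4% GC with 0 CpG, and its TATAAA lay 31 bases before the start. Both ANXA4 windows were rich in GC, at 77.2% with 36 CpG for the first start and 71.6% with 21 CpG for the inner one, and neither held TATAAA. The ANXA11 window was 50.0% GC and held 3 GTCAC and a TATAAA 61 bases before the start, while the windows of the 2 other ANXA11 starts were 73.6% and 52.0% GC and held 0 GTCAC and 0 TATAAA. Over 35116 RefSeq windows of this length the medians were 58.0% GC and 11 CpG, and 37.3% held GTCAC, 61.8% CANNTG and 10.7% TATAAA. The first ANXA4 window held 1 GTCAC and 2 CANNTG, the inner one 0 GTCAC and 2 CANNTG, and the ANXA1 window 0 GTCAC and 2 CANNTG. A match is a run of letters and not a bound site.

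**Figure D1:**
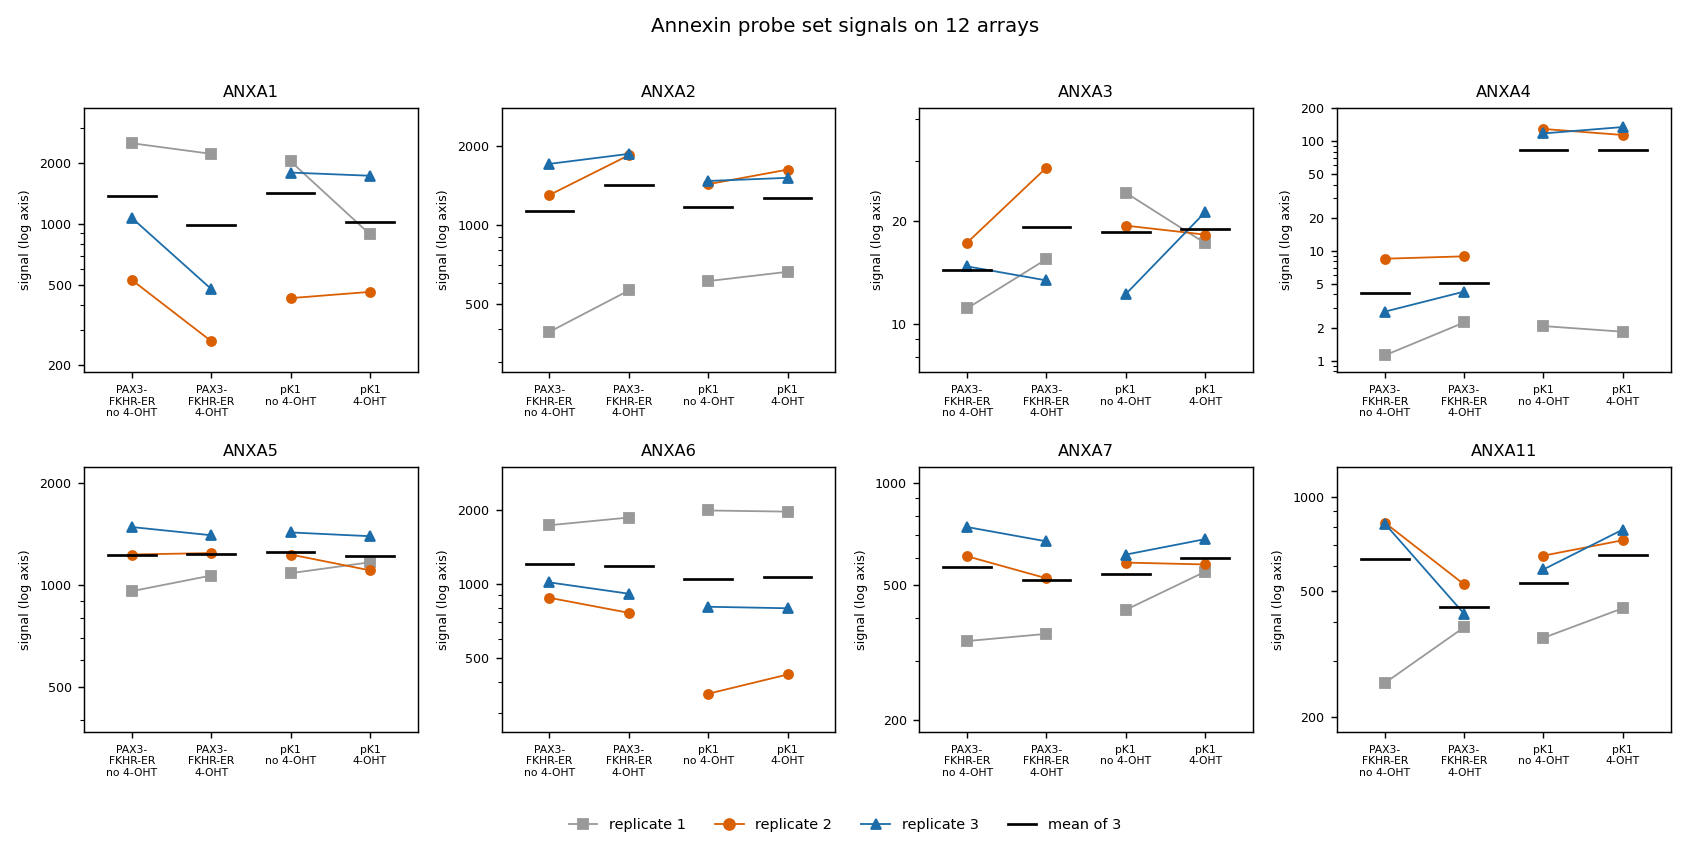
Signal of each annexin's brightest probe set on the 12 arrays (log axis), by construct and treatment. Lines join arrays of 1 replicate number within a construct, and black bars are means of 3 arrays. ANXA4 in pK1 cells stood above 113 in replicates 2 and 3 and at 2.06 or below in replicate 1.

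The question of the 4-OHT comparison is what changes when the fusion protein is given its ligand, with the pK1 cells showing the drug alone. In cells with PAX3-FKHR-ER, ANXA1 and ANXA11 were lower with 4-OHT in replicates 2 and 3. The 3 ANXA2 probe sets with 1 gene symbol were higher there, and ANXA5 stayed near its level. In pK1 cells ANXA1 stayed near its level in those replicates, at log2 differences of 0.10 and −0.05, and ANXA11 was not lower. In PAX3-FKHR-ER cells replicate 1 went the other way for the brighter ANXA11 probe set and showed a smaller difference for ANXA1.

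ANXA1 makes the annexin known for restraining inflammation through formyl peptide receptors and for binding S100A11. In PAX3-FKHR-ER cells its probe set read 2520, 530 and 1075 without 4-OHT and 2232, 264 and 478 with it, in replicates 1, 2 and 3. The lower value stood with 4-OHT in every replicate, but the groups overlapped because replicate 1 was high in both. The log2 differences were −0.17, −0.96 and −1.14, and their mean in replicates 2 and 3 was −1.06, a 2.08-fold lower signal.
In pK1 cells ANXA1 read 2049, 431 and 1803 without 4-OHT and 891, 462 and 1739 after it. There the log2 differences were −1.19, 0.10 and −0.05, so the low value with the drug was that of replicate 1 alone. The change in PAX3-FKHR-ER cells less that in pK1 cells was 1.01, −1.06 and −1.09 in replicates 1, 2 and 3. Group means were 1375 ± 1028 and 991 ± 1080 for PAX3-FKHR-ER cells without and with 4-OHT and 1428 ± 872 and 1031 ± 650 for pK1 cells (SD, n = 3 each). In such bulk samples fewer cells with a transcript and less of it per cell cannot be told apart.

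ANXA11 makes an annexin with a long N-terminal tail that tethers RNA granules to lysosomes and binds the calcium sensor PDCD6. The brighter of its 2 probe sets read 256, 827 and 821 in PAX3-FKHR-ER cells without 4-OHT and 385, 526 and 425 with it. Replicate 1 was higher with the drug and the other two were lower. The log2 differences were 0.56, −0.64 and −0.93, with a mean of −0.78 in replicates 2 and 3, a 1.72-fold lower signal.
In pK1 cells the same probe set read 356, 649 and 587 without 4-OHT and 442, 727 and 786 with it, higher with the drug in all 3 replicates by 0.30, 0.16 and 0.41. The dimmer ANXA11 probe set lay at 45.7 to 163 over the 12 arrays. It had log2 differences of −0.18, −0.26 and −0.43 in PAX3-FKHR-ER cells, the same direction but smaller in replicates 2 and 3. In pK1 cells it gave −0.49, 0.03 and 0.02.

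ANXA2 makes the annexin that pairs with S100A10 and binds tissue plasminogen activator at the cell surface. The brightest of its 3 probe sets read 391, 1300 and 1708 in PAX3-FKHR-ER cells without 4-OHT and 562, 1843 and 1865 with it. Signal was higher with the drug in each replicate, by 0.51, 0.50 and 0.12 on the log2 scale. In pK1 cells it read 610, 1429 and 1470 without 4-OHT and 662, 1624 and 1511 with it, differences of 0.12, 0.18 and 0.04.
The other ANXA2 probe sets had differences of 0.03, 0.87 and 0.33 and of 0.35, 0.63 and 0.10 in PAX3-FKHR-ER cells. All 3 carry the suffix for probes that can match other sequences, and ANXA2 has near-identical pseudogene copies. The probe set of ANXA2P2 read 124, 390 and 406 without 4-OHT and 177, 574 and 500 with it in PAX3-FKHR-ER cells, so reads of the gene and its copy cannot be told apart here. A further probe set carries the symbols of both SNU13 and ANXA2 and ranged from 657 to 1360. It did not show the rise, with differences of −0.146, 0.135 and −0.039 in PAX3-FKHR-ER cells.

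ANXA5, widely used as a probe for exposed phosphatidylserine, was the steadiest annexin. It read 959, 1229 and 1480 in PAX3-FKHR-ER cells without 4-OHT and 1066, 1241 and 1400 with it. In pK1 cells it read 1083, 1229 and 1427 without the drug and 1166, 1104 and 1391 with it. No difference of ANXA5 between groups within a replicate, for 4-OHT or for construct, exceeded 0.173 in size on the log2 scale.

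ANXA6, the large annexin with a doubled core that joins membrane repair in muscle, had 4-OHT differences of 0.10, −0.20 and −0.15 in PAX3-FKHR-ER cells and −0.01, 0.25 and −0.02 in pK1 cells. ANXA7, which binds the calcium protein sorcin, was seen by 2 probe sets. The brighter read 342, 608 and 740 in PAX3-FKHR-ER cells without 4-OHT and 359, 523 and 672 with it, differences of 0.07, −0.21 and −0.14. The dimmer gave 0.64, 0.03 and −0.04 in those cells and 0.71, 0.21 and 0.14 in pK1 cells, so replicate 1 alone differed widely, in both constructs. ANXA3 was dim, at 11.1 to 28.8 over the 12 arrays, and its probe set was the only annexin probe set of the 13 left out of the tests for low signal.

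**Figure D2:**
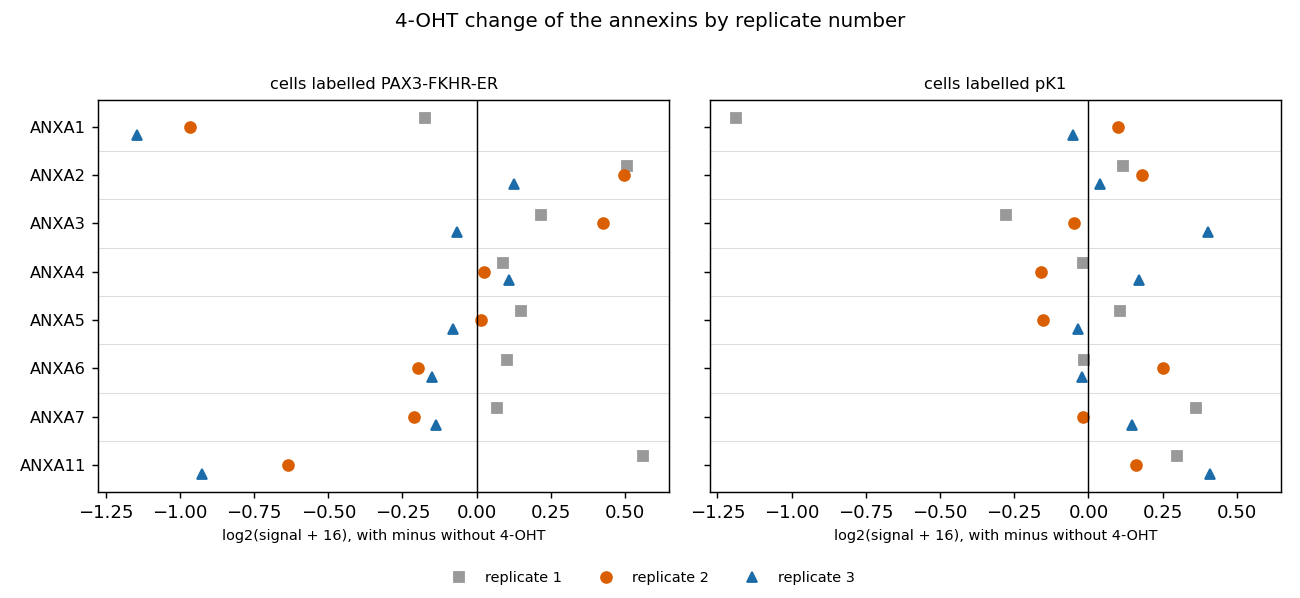
Change with 4-OHT of each annexin's brightest probe set, as log2(signal + 16) with minus without the drug, by replicate number, in PAX3-FKHR-ER cells on the left and pK1 cells on the right. ANXA1 and ANXA11 lie at −0.64 or lower in replicates 2 and 3 of PAX3-FKHR-ER cells, while in pK1 cells these replicates lie between −0.05 and 0.41.

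Over all arrays, limma called 0 of 13329 probe sets in the 4-OHT comparison of PAX3-FKHR-ER cells (0.0%) and 0 in that of pK1 cells (0.0%), at a Benjamini-Hochberg adjusted p under 0.05. At an unadjusted p under 0.05 it had 62 and 72. This fit takes no account of replicate number, so the distance of replicate 1 from the other arrays enters its spread. A lack of calls in it is therefore no sign of a lack of change. The 7 annexin genes above the signal filter had a median change of −0.08 in PAX3-FKHR-ER cells and 0.07 in pK1 cells, against −0.01 and −0.03 over all tested probe sets. With replicates 2 and 3 alone, paired by number, limma called 186 probe sets in PAX3-FKHR-ER cells (1.40%) and 0 in pK1 cells (0.0%). Without pairing, limma called 0 in either construct with the same replicates, so the 186 calls rest on a pairing that was assumed. ANXA1 and 1 of 2 ANXA11 probe sets were among the 186, with changes of −1.06 ± 0.12 and −0.78 ± 0.13 (SE). Both calls were lost without the intensity trend, and that of ANXA11 also without the signal filter. As the choice of genes used this contrast, nothing is read from that. By size alone, a rule set after the values were seen, 277 probe sets (2.08%) were lower by over 0.5 on the log2 scale in both replicates, and these included 2 annexin probe sets, ANXA1 and ANXA11.

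The construct comparison asks how cells with PAX3-FKHR-ER differ from vector cells at the same treatment. ANXA4 differed most: it was lower in PAX3-FKHR-ER cells in replicates 2 and 3, with and without 4-OHT, and by both of its probe sets. ANXA1 was lower in PAX3-FKHR-ER cells with 4-OHT in those replicates, and ANXA6 was higher, mainly in replicate 2.

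ANXA4 makes an annexin of secretory and epithelial cells that also gathers at membrane wounds. The brighter of its 2 probe sets read 2.06, 128 and 117 in pK1 cells without 4-OHT and 1.83, 113 and 134 with it. In PAX3-FKHR-ER cells it read 1.12, 8.46 and 2.79 without 4-OHT and 2.22, 8.89 and 4.25 with it. Both pK1 groups in replicates 2 and 3 stood far above every other array, and in replicate 1 both constructs were near the bottom of the scale.
The log2 construct differences, PAX3-FKHR-ER minus pK1, were −0.08, −2.56 and −2.82 without 4-OHT and 0.03, −2.38 and −2.88 with it. In replicates 2 and 3 that is a mean of −2.69, or 6.46-fold, without the drug and −2.63, or 6.19-fold, with it. Signals under the added 16 make these sizes too small. Group means were 4.12 ± 3.85 and 5.12 ± 3.42 in PAX3-FKHR-ER cells without and with 4-OHT and 82.4 ± 69.8 and 82.8 ± 70.9 in pK1 cells (SD, n = 3 each). The drug itself left this probe set near its level in PAX3-FKHR-ER cells, with differences of 0.09, 0.03 and 0.11.

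The dimmer ANXA4 probe set read 25.2, 83.8 and 77.3 in pK1 cells without 4-OHT and 17.0, 99.0 and 66.7 with it. In PAX3-FKHR-ER cells it read 11.1, 37.3 and 25.6 without 4-OHT and 5.68, 24.6 and 4.40 with it. It was lower in PAX3-FKHR-ER cells in all 3 replicates, by log2 differences of −0.61, −0.91 and −1.17 without 4-OHT and −0.61, −1.50 and −2.02 with it. With 4-OHT in PAX3-FKHR-ER cells this probe set was also lower in each replicate, at −0.32, −0.39 and −1.03, which the brighter probe set did not show.
MYOD1, a muscle regulator picked from the 8 muscle markers after its values were seen, had the reverse layout. It read 1112, 222 and 367 in pK1 cells without 4-OHT and 2098, 197 and 322 with it, against 1006 to 1912 on the 6 PAX3-FKHR-ER arrays. CDH15 shared that layout in part, with 361, 112 and 232 in pK1 cells without 4-OHT and 375, 106 and 220 with it. On the PAX3-FKHR-ER arrays CDH15 read 243 to 471. In replicate 3 without 4-OHT the constructs were close, at 232 in pK1 cells and 243 in PAX3-FKHR-ER cells. DES and NCAM1 did not share the layout. In replicate 3 DES read 710 and 862 in pK1 cells without and with 4-OHT against 466 and 343 in PAX3-FKHR-ER cells. NCAM1 there read 327 and 262 against 175 and 145. The part of muscle genes in the ANXA4 difference was not tested.

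**Figure D3:**
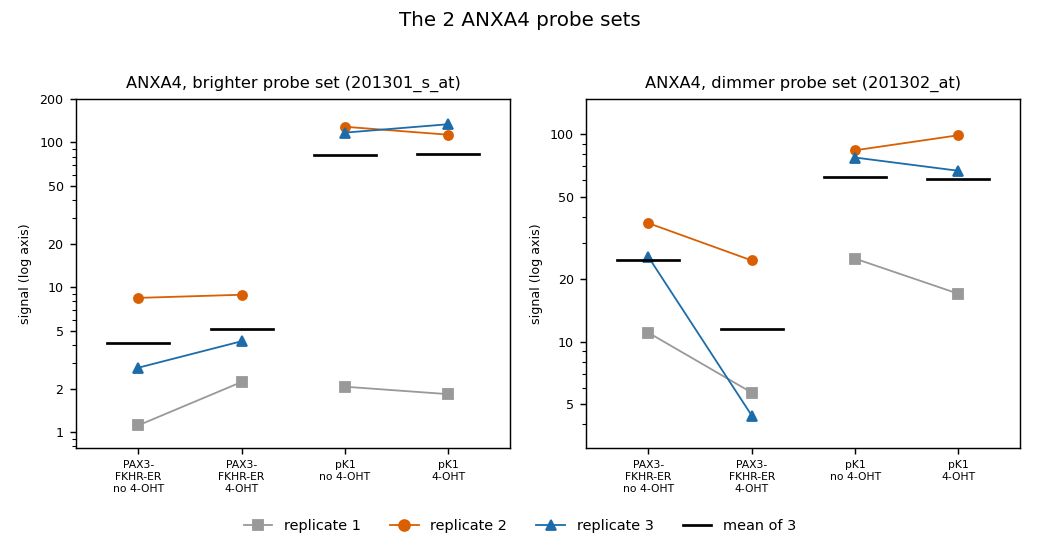
Signals of the 2 ANXA4 probe sets on the 12 arrays (log axis), by construct and treatment, with lines joining arrays of 1 replicate number and bars at the means. In replicates 2 and 3 the pK1 arrays lie above the PAX3-FKHR-ER arrays for both, from 113 to 134 against 2.79 to 8.89 for the brighter one.

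ANXA1 construct differences were 0.30, 0.29 and −0.74 without 4-OHT and 1.31, −0.78 and −1.83 with it. Their sign thus changed between replicate 1 and the others with the drug, and between replicate 3 and the others without it. ANXA6 read 1733, 879 and 1015 in PAX3-FKHR-ER cells and 1989, 358 and 808 in pK1 cells without 4-OHT. With the drug it read 1862, 764 and 913 against 1968, 429 and 797. Its differences were −0.20, 1.26 and 0.32 without 4-OHT and −0.08, 0.81 and 0.19 with it, so replicate 2 carried most of the difference. In that replicate the summed signal of 8 muscle marker genes was also at its lowest in pK1 cells, at 963 without and 794 with 4-OHT, and its part was not tested.

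The brighter ANXA11 probe set differed by −0.45, 0.34 and 0.47 without 4-OHT and by −0.19, −0.45 and −0.86 with it. The construct difference in replicates 2 and 3 thus had opposite signs without and with the drug. The 3 ANXA2 probe sets differed by between −0.62 and 0.30 over replicates and treatments. The brighter ANXA7 probe set differed by −0.29, 0.06 and 0.26 without 4-OHT and by −0.59, −0.13 and −0.02 with it. Neither gene kept one sign over all 3 replicates without the drug.

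**Figure D4:**
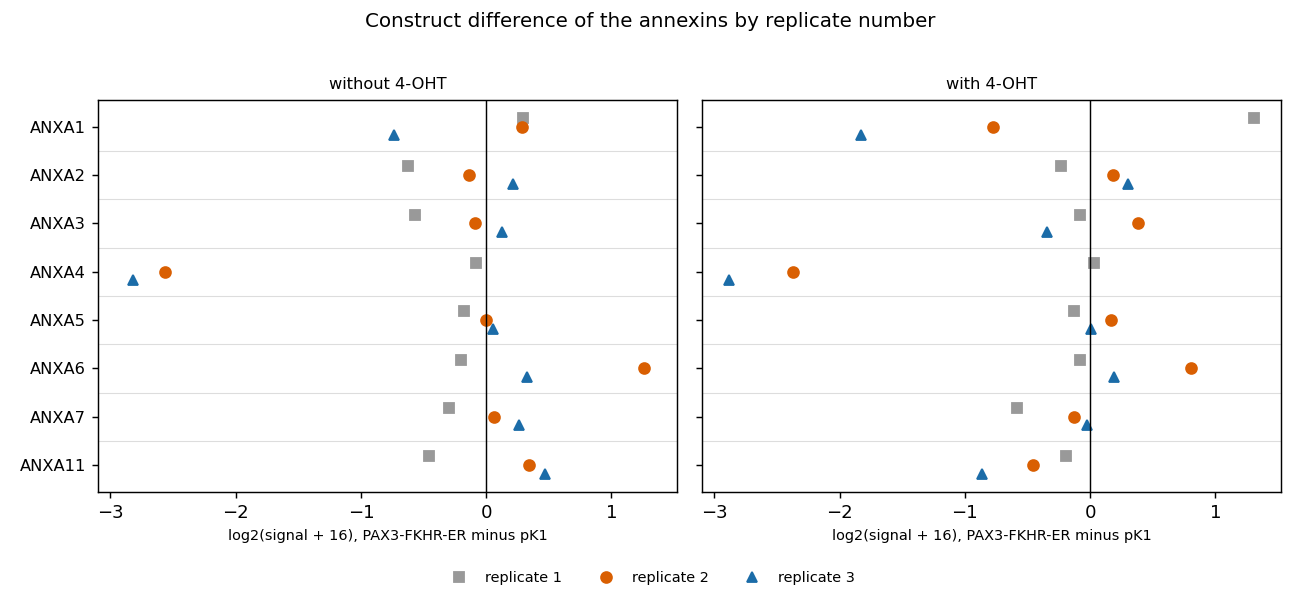
Construct difference of each annexin's brightest probe set, as log2(signal + 16) in PAX3-FKHR-ER minus pK1 cells, by replicate number, without 4-OHT on the left and with it on the right. ANXA4 lies at −2.38 or lower in replicates 2 and 3 and near 0 in replicate 1.

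The fit to 12 arrays called 0 probe sets in the construct comparison without 4-OHT (0.0%), 0 with it (0.0%) and 0 for the difference of the 4-OHT changes (0.0%), with 277, 267 and 39 at an unadjusted p under 0.05 by limma. The paired limma fit to replicates 2 and 3 called 1 (0.0075%), 21 (0.158%) and 7 (0.0525%). Of these, the 21 held the brighter ANXA4 probe set, with a difference of −2.63 ± 0.30 (SE), and an unpaired fit to the same 8 arrays called 13, this probe set included. The call was lost in paired fits without the intensity trend or without the signal filter. The brighter ANXA4 probe set passed that filter, at a mean of 43.6 against 36.7, only through the pK1 arrays of replicates 2 and 3. The dimmer one, at a mean of 39.8, passed it only through the same arrays. Deviations of same-numbered arrays from their group means correlated less between constructs than between treatments of 1 construct, down to 0.152. They include the shift of replicate 1, so they cannot show pairing within replicates 2 and 3. By size alone, 426 probe sets (3.20%) without 4-OHT and 572 (4.29%) with it were lower in PAX3-FKHR-ER cells by over 0.5 in both replicates. These held 2 and 3 annexin probe sets, both of ANXA4 and, with the drug, ANXA1. For the difference of the 4-OHT changes there were 419 (3.14%), among them ANXA1, the brighter ANXA11 and the dimmer ANXA4 probe set. Each count used the contrasts behind the choice of genes, so nothing is read from it.

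The annexins also differed between replicate 1 and the rest. For 6 of 12 tested annexin probe sets the 4 replicate 1 arrays did not overlap the other 8, as was so for 21.3% of all tested probe sets. The 3 ANXA2 probe sets, the brighter ANXA4 and the dimmer ANXA7 probe set were lower in replicate 1, and ANXA6 was higher. The 3 ANXA2 probe sets are of the same gene. For ANXA4 the gap lay near the bottom of the scale, at 1.12 to 2.22 against a lowest of 2.79. Nothing is read from the count of 6. The brightest ANXA2 probe set ranged from 391 to 662 in replicate 1 and from 1300 to 1865 elsewhere, and ANXA6 from 1733 to 1989 against 358 to 1015. ANXA1 was 1.37 higher on the log2 scale in replicate 1 but overlapped. 

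The S100 proteins that bind annexin tails were read next, and their signals were not used to choose the annexins. This list and those that follow were still chosen with earlier results of these data known. Their p-values are therefore not tests of an independent choice. None of the 7 S100 genes tested, of 12 measured, was called in any of the 5 comparisons by either limma fit. S100A10, the ANXA2 partner, read 440, 1247 and 1135 in PAX3-FKHR-ER cells without 4-OHT and 383, 1341 and 1142 with it. Its change in the paired limma fit was 0.06 ± 0.11 (SE, adjusted p = 0.915), beside the ANXA2 value of 0.31 in the same replicates.
S100A11, the ANXA1 partner, read 3253, 934 and 1407 without 4-OHT and 3292, 869 and 1064 with it, a change of −0.25 ± 0.12 in the paired limma fit (adjusted p = 0.498). S100A6, which binds several annexins, read 24.5, 1408 and 1056 without 4-OHT and 6.04, 1211 and 712 with it, at −0.39 ± 0.14 (adjusted p = 0.295, limma). S100A4, a marker of motile cells, read 73.5, 315 and 222 without and 80.5, 229 and 109 with the drug, at −0.68 ± 0.16 (adjusted p = 0.102, limma). All 4 of these S100 genes had an adjusted p of 1.0 in the limma fit to 12 arrays, which takes no account of replicate number.

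Membrane repair genes were measured for 15 of 20 listed genes, all tested. MYOF, a ferlin of plasma membrane repair and myoblast fusion, fell with 4-OHT in PAX3-FKHR-ER cells in the paired fit to replicates 2 and 3. Its brightest probe set read 242, 275 and 528 without the drug and 347, 172 and 274 with it, so replicate 1 went up. The change was −0.77 ± 0.14 (SE, limma adjusted p = 0.0397), against 0.08 ± 0.14 in pK1 cells. A second probe set had −0.60 (limma adjusted p = 0.153), and the difference between the constructs in the 4-OHT change had an adjusted p of 0.206 by limma. The MYOF call was absent from the fit to 12 arrays, which takes no account of replicate number (limma adjusted p = 1.0). It was also absent from paired fits without the intensity trend or without the signal filter. Once the mean of each replicate number was subtracted, MYOF had the highest correlation with ANXA11 of 8124 genes, r = 0.949 over 12 arrays, a description in which both share libraries and drug contrast.

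Of 10 measured genes of the plasminogen system, whose activator ANXA2 binds, 8 were tested. With 4-OHT in PAX3-FKHR-ER cells the paired fit called SERPINE2 higher and TFPI lower, and the other 6 passed no threshold. SERPINE2, which blocks plasminogen activators and thrombin, read 502, 690 and 1003 without and 700, 2681 and 2253 with the drug. It rose by 1.55 ± 0.18 (SE, limma adjusted p = 0.00808). In pK1 cells SERPINE2 read 671, 629 and 1588 without and 2140, 671 and 1949 with 4-OHT, so replicate 1 there was higher too, and the difference of the changes had an adjusted p of 0.123 by limma. TFPI, an inhibitor of tissue factor, fell by 0.78 on its brightest probe set (SE 0.15, limma adjusted p = 0.0484), while its 3 other tested probe sets had −0.61 to −0.72 with adjusted p of 0.0723 to 0.287. These calls too were absent from the fit to 12 arrays (limma adjusted p = 1.0) and from paired fits without the trend or the filter. The fit to 12 arrays takes no account of replicate number. Adding replicate number to that fit as a block also gave no call among the 8 tested genes.

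**Figure D5:**
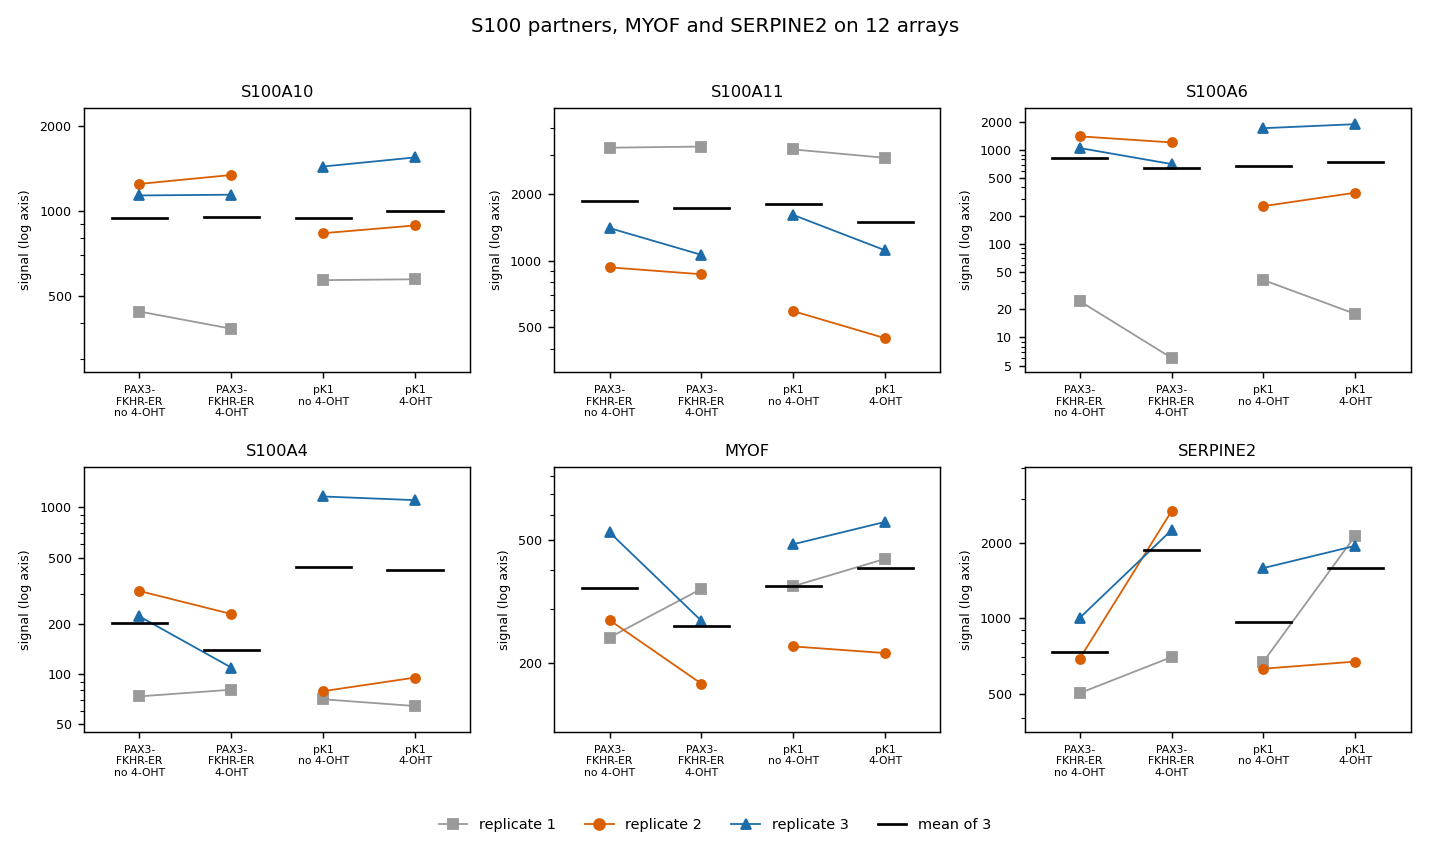
Signals of 4 S100 genes, MYOF and SERPINE2 on the 12 arrays (log axis), by construct and treatment, with lines joining arrays of 1 replicate number and bars at the means of 3. MYOF falls and SERPINE2 rises with 4-OHT in replicates 2 and 3 of PAX3-FKHR-ER cells, and S100A6 is at 41.0 or below in replicate 1.

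The other lists had 0 calls in each of the 5 comparisons by both limma fits. They held 9 tested genes of phosphatidylserine exposure and uptake, 5 of lipid mediators and ANXA1 receptors, 12 of cortical actin and 7 partners of ANXA7 and ANXA11. Sorcin (SRI), the ANXA7 partner, had −0.56 ± 0.17 between constructs with 4-OHT in the paired limma fit (adjusted p = 0.261). The median change with 4-OHT in PAX3-FKHR-ER cells in the fit to 12 arrays was −0.19 for the S100 genes and 0.03 for membrane repair, against −0.01 over all tested probe sets.

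Within the family, correlations over 12 arrays after subtracting the mean of each replicate number are a description, as all points share libraries. ANXA1 and ANXA2 had r = −0.732, ANXA4 and ANXA6 −0.793, ANXA5 and ANXA7 0.661, and ANXA7 and ANXA11 0.602. ANXA6 had 0.709 with S100A11, ANXA2 0.158 with S100A10 and ANXA1 0.198 with S100A11. The genes most like each annexin on this scale, of 8124, were ZFP36L2 for ANXA1 (0.974), ANXA2P2 for ANXA2 (0.954), UNC50 for ANXA4 (0.975), MAMLD1 for ANXA5 (0.910), NES for ANXA6 (0.982) and MXRA7 for ANXA7 (0.922). Without that subtraction the top genes were LAMB1, ANXA2P2, DHRS7, NQO1, RAPSN and MXRA7 in the same order, with r of 0.964, 0.982, 0.969, 0.934, 0.987 and 0.933, and SERPINB1 for ANXA11 (0.926).

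The remaining annexins were dim or shared a probe set. ANXA9, ANXA10 and ANXA13 lay at 45.9 or below on every array and were under the signal filter. The probe set shared by ANXA8 and ANXA8L1 ranged from 101 to 203 and named neither gene.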

How the data were processed

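Per the submitters' processing notes, the authors made the deposited signals, an intensity on a linear scale, with GCOS and MAS5, with no version given there. Symbols came from the array annotation: 19065 probe sets had 1, 1043 several and 2107 none, and RefSeq identifiers altered 0. Members and lists were chosen with earlier results of these data known. Every annexin probe set with 1 symbol is given, the brightest first. Of the lists, genes called in either limma fit, the 3 brightest and S100A10, S100A11, S100A6 and S100A4 were eligible to be named. Signals were taken as log2(signal + 16), and the dimmest 40% by mean signal (under 36.7) were left out, leaving 13329. limma 3.58.1 in R 4.3.3 fitted 12 arrays (eBayes with trend, Benjamini-Hochberg). Alternatives changed pseudocount, filter, scaling, trend, arrays and replicate block. Numbers were taken to pair samples, which is an assumption. Same-numbered arrays deviated together from their group means (correlation at least 0.152 in every pair). These deviations include the shift of the replicate 1 arrays, so they cannot show pairing among the other arrays. The fit was tested on simulated data. RefSeq windows before starts were searched for motifs with Python 3.11.15. Protein sequences were not used here.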

Additional observations from a re-analysis of the deposited data

How the results depend on the processing

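The fit to 12 arrays called 0 probe sets in all 5 comparisons, as did every fit that left out 1 array (0 to 0) and the 12-array fit with the replicate block, which had 894, 916, 981, 931 and 634 probe sets at an unadjusted p under 0.05 by limma for 4-OHT in PAX3-FKHR-ER cells, 4-OHT in pK1 cells, constructs without and with 4-OHT, and the difference of the changes. Calls appeared with replicates 2 and 3 alone. Paired by the replicate block, they were 186 for 4-OHT in PAX3-FKHR-ER cells, 1 and 21 for constructs without and with 4-OHT, and 7 for the difference. Unpaired, they were 1 and 13 for constructs without and with 4-OHT. Further settings of the paired fit were chosen after seeing the data. Without the intensity trend, calls were 17 for 4-OHT in PAX3-FKHR-ER cells and 1 and 2 for constructs. Without the signal filter they were 37, and 4 for constructs with 4-OHT. With quantile normalization they were 207, 1, 17 and 18 for the difference. The cause was not tested. Under the paired fit with quantile normalization ANXA1 was also called for the difference of the 4-OHT changes, at −1.11, which the paired fit without that scaling did not call. ANXA1 was called for 4-OHT in PAX3-FKHR-ER cells with and without the filter but not without the trend, the brighter ANXA11 probe set only with both, and the brighter ANXA4 probe set between constructs with 4-OHT with both or unpaired. MYOF, SERPINE2 and TFPI were called only with both, with or without quantile normalization. Of 1015 annexin values under alternatives, 892 moved by less than the spread between replicates and 123 moved further. Many of the 892 could not move. Dropping the filter or the trend, or adding the replicate block to 12 arrays, leaves the size of a change as it was. Leaving out an array does not touch comparisons without its group. The count is therefore no measure of robustness. Of 79 annexin differences within a replicate of at least 0.3 in size, 0 changed sign under quantile or median scaling, and of all 195 differences 20 did.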
